A study of Mus musculus with 4 samples.

Results

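Cholesterol synthesis and SREBP2 genes are described here over 4 lines of L1210, a mouse lymphocytic leukemia cell line. The set holds 8 genes (Hmgcs1, Idi1, Fdft1, Sqle, Lss, Cyp51, Srebf2 and Insig1), taken as all probes that carry one of these symbols in the deposited table, which gave 11 probes for 8 of the 24561 gene symbols on the array. L1210 cells of the DBA subline 212 were infected with lentivirus, and the GFP+ cells that carried the insert stably were sorted by flow cytometry. Whether a line is a clone or a pool of sorted cells is not given in the sources used here. L1210-Control is the control line, L1210-Fbxw11a expresses the full-length transcript of Fbxw11, which encodes an F-box protein that recognises targets of a ubiquitin ligase, and both L1210-Fbxw11c and L1210-Fbxw11d express shorter splice variants, in which early exons are skipped. All 4 lines were grown in the same medium with serum. RNA of each line was labelled with Cy3, a fluorescent dye, and read on 1 Agilent array. The lines are called control, Fbxw11a, Fbxw11c and Fbxw11d from here on. With 1 array per line there is no replicate, no test between lines could be made, and no p-value is printed.

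Cells make cholesterol from acetyl-CoA through mevalonate, isoprenoids, squalene and lanosterol. The transcription factor SREBP2, the product of Srebf2, raises the transcription of most enzymes of this route when sterols in the endoplasmic reticulum are low. It is held there by SCAP and INSIG proteins when sterols are plentiful. Dividing leukemia cells need cholesterol for new membrane, and the genes of the route often move together.

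SREBP2 binds sterol regulatory elements beside sites for the factors NF-Y and Sp1. To show what the promoters of the set hold, the 250 bases before the transcription start were read from RefSeq promoters of GRCm38.p6, where 6 of the 8 genes (Hmgcs1, Idi1, Lss, Cyp51, Srebf2 and Insig1) were matched. The letters TCACNCCAC for a sterol regulatory element, CCAAT for NF-Y and GGGCGG for Sp1 were searched on both strands. Capitals mark every match, written as the gene's own strand reads, so that ATTGG and CCGCCC are matches on the other strand. The promoters of an early enzyme, an isoprenoid enzyme, a late enzyme and a regulator (Insig1) are shown. They lie at chr13:119690101-119690350 (+), chr13:8885356-8885605 (+), chr5:4104698-4104947 (-) and chr5:28071162-28071411 (+).
Hmgcs1: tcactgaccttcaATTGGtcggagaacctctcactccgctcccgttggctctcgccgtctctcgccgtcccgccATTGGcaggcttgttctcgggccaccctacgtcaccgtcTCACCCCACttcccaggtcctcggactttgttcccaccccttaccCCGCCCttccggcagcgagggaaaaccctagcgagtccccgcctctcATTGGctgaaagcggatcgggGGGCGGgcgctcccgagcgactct
Idi1: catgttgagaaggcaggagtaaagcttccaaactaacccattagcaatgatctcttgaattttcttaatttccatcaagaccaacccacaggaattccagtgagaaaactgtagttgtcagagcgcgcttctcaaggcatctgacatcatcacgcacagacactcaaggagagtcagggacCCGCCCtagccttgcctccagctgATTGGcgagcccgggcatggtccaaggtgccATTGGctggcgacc
Cyp51: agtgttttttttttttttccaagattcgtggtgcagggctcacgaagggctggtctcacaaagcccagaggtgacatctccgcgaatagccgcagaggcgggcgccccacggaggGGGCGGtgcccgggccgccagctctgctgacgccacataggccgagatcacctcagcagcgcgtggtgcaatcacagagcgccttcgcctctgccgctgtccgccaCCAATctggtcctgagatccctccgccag
Insig1: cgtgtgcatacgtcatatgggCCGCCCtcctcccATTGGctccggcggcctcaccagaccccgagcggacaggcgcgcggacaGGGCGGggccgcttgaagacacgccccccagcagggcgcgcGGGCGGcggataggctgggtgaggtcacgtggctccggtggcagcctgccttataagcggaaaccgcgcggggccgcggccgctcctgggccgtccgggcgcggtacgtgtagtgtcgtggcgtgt

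The sterol element letters were found in the Hmgcs1 promoter alone among the 6, from 137 to 129 bases before the start, as TCACCCCAC. They were present in 1.05% of all 32851 promoters of the table, and the form TCACCCCAC in 0.496%. CCAAT was found in 6 of 6 promoters and in 33.8% of all promoters. GGGCGG was also found in 6 of 6, and in 32.7% of all. The nearest CCAAT lay 14 to 10 bases before the start in Idi1, 29 to 25 in Cyp51, 45 to 41 in Hmgcs1, 62 to 58 in Lss, 135 to 131 in Srebf2 and 216 to 212 in Insig1. Srebf2 had the most GGGCGG matches, with 4. Among 16 promoters of 13 other cholesterol synthesis enzymes in the table, 0 held the sterol element letters, 11 held CCAAT and 13 held GGGCGG. Only exact matches to the searched letters were counted, and other forms of the sterol element were not searched. The Srebf2 promoter held TCACCCCAT, which differs from the searched letters in the last base. The matches describe sequence and are no measure of binding.

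Each signal below is the scanner's background-corrected intensity, scaled to the 75th percentile of its array and written on the scale of the control array, with the scanner software's own error. That error is 10% of the signal for bright spots, which makes 0.20 on the log2 scale for a ratio of 2 arrays, and it covers neither culture, sorting nor RNA extraction. For probes printed on 10 spots in the brightness range of the 8 genes (168 to 181 probes per array), the median SD between spots was 0.056 on the log2 scale for control, 0.071 for Fbxw11a, 0.064 for Fbxw11c and 0.099 for Fbxw11d. No gene spot was saturated. Fbxw11d was hybridised alone on slide 2 and the other 3 arrays on slide 1, so for this line slide and variant cannot be told apart. Its E1A spike-in RNAs stood at -0.59 ± 0.09 (SD, n = 8 probes) against control on the log2 scale after scaling, while those of Fbxw11a and Fbxw11c stood at 0.13 ± 0.06 and 0.15 ± 0.10. Both Fbxw11 probes lie near the 3' end of the transcript and differed by at most 0.31 on the log2 scale from control. On the array they therefore give no check of the labels. The paper reports checking the high variant levels of these lines by real-time PCR and western blots. As markers of other cell types, 8 macrophage markers were read by their brightest probes under the reported scaling. Of these, 4 (Cd14, Itgam, Cd68 and Csf1r) were lower than control in all 3 variant lines, beside 20.9% of all genes. Csf1r was past 2-fold lower in Fbxw11d (-1.12 on the log2 scale), beside 4.96% of all genes. Another Csf1r probe, well above background in all lines, gave -0.26 there. Csf1r was not past 2-fold with the mean of all probes, centring on the median, spike-in scaling or no scaling. Emr1 was higher in Fbxw11a and Fbxw11d (48.3 in control, 90.9 in both) and lower in Fbxw11c (35.6), and Mpeg1 was higher in Fbxw11d by 0.12 on the log2 scale. The signal summed over the 6 measured macrophage markers was 14601 in control against 11122 to 12334, and Lyz2 and Fcgr1 were not well above background anywhere. The fibroblast list, led by Col1a2 (888 in control, 2419, 3819 and 3688 in Fbxw11a, Fbxw11c and Fbxw11d), summed to 1238 in control and to 2775 to 4127 in the variants, a rise carried mostly by Col1a2. Col1a1 was higher in all 3 lines (0.04, 0.38 and 0.47 on the log2 scale), and Col3a1, not well above background in control, was at least 1.61-fold, 1.96-fold and 1.12-fold higher. Pdgfra was lower in all 3 lines (-0.02, -0.55 and -0.70 on the log2 scale), Dcn was lower in Fbxw11a and Fbxw11c (-0.29 and -0.53) and higher in Fbxw11d (0.33), and Pdgfrb and Thy1 were not well above background in any line. Of the B lineage list 5 of 7 were measured, with Blnk at 18268 to 23136. Of these, 3 were higher and 1 lower than control in all 3 lines, and Ebf1 and Cd79b were not well above background. Pax5 stood at 0.03, -0.92 and -0.83 on the log2 scale. Its signal was 29.7 in control and 15.7 in Fbxw11c, where the lowest signal well above background was 14.9. The second Pax5 probe was not well above background in any line. Of the T lineage list 6 of 8 were measured, with Cd4 at 2830 to 3071, and Cd3d and Cd3g were not. By its brighter probe Zap70 was lower in all 3 lines (-0.87, -1.10 and -0.31). Its second probe, also well above background in all lines, stood at -0.18, 0.04 and -1.64. Cd3e was higher in all 3 lines (0.31, 0.19 and 0.16). Lck was higher in Fbxw11a and Fbxw11c (0.33 and 0.16) and lower in Fbxw11d (-0.52). Cd247 stood at 0.56, -0.08 and 0.64, from a control signal of 18.8, where the lowest signal well above background was 18.1. All these marker values are under the reported scaling, and in Fbxw11d spike-in scaling raises each log2 ratio by 0.59. The part of these differences in the results below was not tested.

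All 8 genes were well above background in all 4 lines. Most were slightly higher in the Fbxw11 lines than in control, by up to 1.49-fold (in Fbxw11a not so with spike-in scaling), and under the reported scaling none reached the study's threshold of a 2-fold change. Both values depend on the scaling of Fbxw11d, where 4 of 8 genes passed 2-fold with spike-in scaling and 5 of 8 with no scaling, by up to 2.25-fold and 2.30-fold, beside 10.5% and 12.2% of all genes higher. At that threshold, 0 of the 8 were higher or lower in Fbxw11a, where 2.47% of the 17647 genes compared were higher and 2.06% lower. In Fbxw11c it was 0 of 8, beside 1.63% higher and 2.3% lower of 17514 genes. In Fbxw11d it was again 0 of 8, beside 1.11% higher and 4.96% lower of 17446 genes. A threshold of 1.5-fold under the same scaling gave 0 of 8 in each line as well, beside 6.05%, 4.49% and 5.15% of genes higher and 4.89%, 5.5% and 10.4% lower in Fbxw11a, Fbxw11c and Fbxw11d. In bulk RNA, a different share of some kind of cell and a different amount of RNA per cell cannot be told apart. The plot of signals by line shows each gene on its own axis, since the levels of different probes cannot be set against each other.

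**Figure D1:**
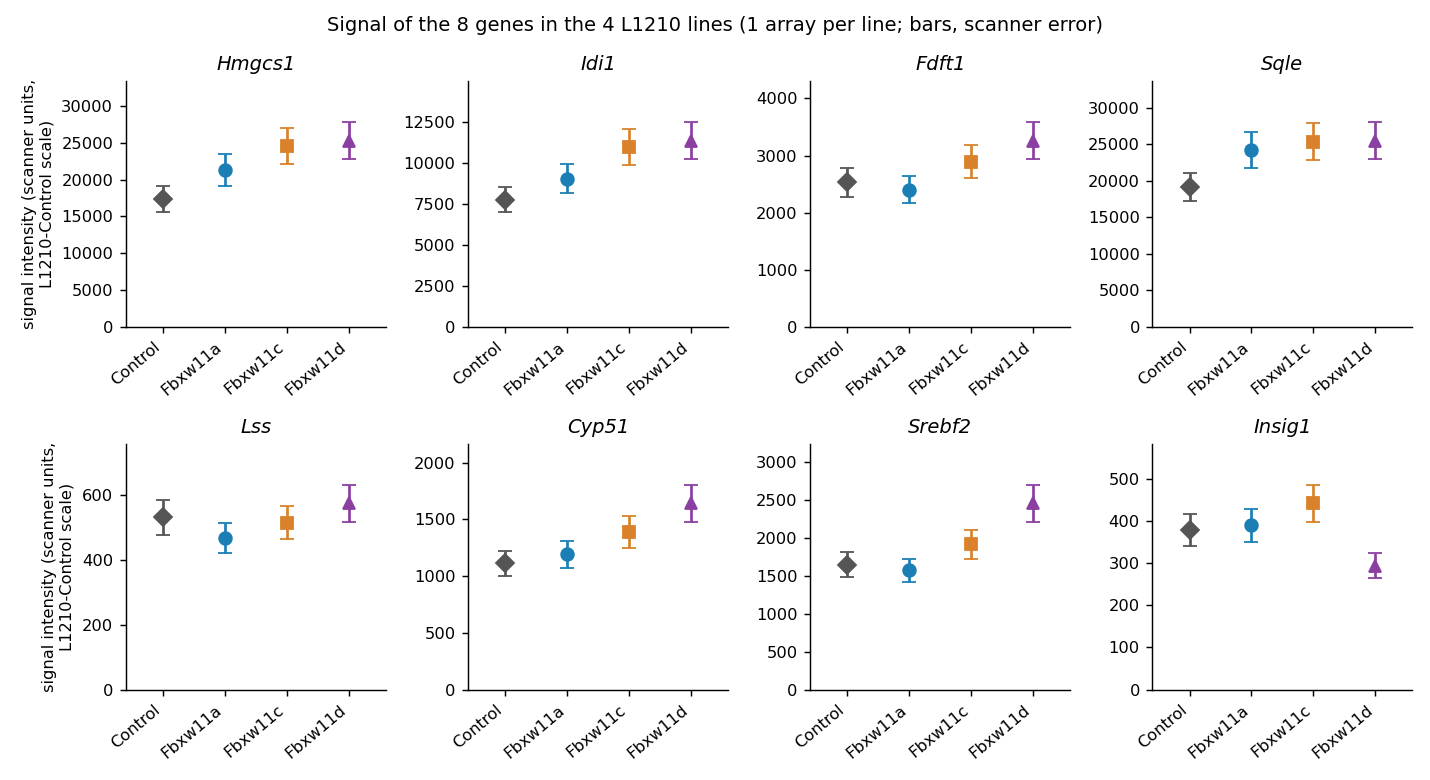
Signal intensity of each of the 8 genes (y axis, scanner units on the control scale, starting at 0) in the 4 lines (x axis), by its brightest probe. Points are single arrays and bars the scanner error; Hmgcs1, Idi1, Sqle and Cyp51 are lowest in control, and Insig1 is lowest in Fbxw11d at 294 under the reported scaling.

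The first enzyme of the set, Hmgcs1, makes HMG-CoA, from which mevalonate is formed. Its probe at 114793 to 114852 on the mm9 sequence chr13_random gave 17371 ± 1737 in control, 21308 ± 2131 in Fbxw11a, 24530 ± 2453 in Fbxw11c and 25292 ± 2529 in Fbxw11d. All 3 Fbxw11 lines lay above control, and the full-length line lay below both lines with shorter variants. The ratios were 1.23-fold, 1.41-fold and 1.46-fold, or 0.29, 0.50 and 0.54 on the log2 scale, each ± 0.20. Fbxw11d and Fbxw11c did not differ beyond the scanner error (0.04 on the log2 scale), nor did Fbxw11c and Fbxw11a (0.20). A second Hmgcs1 probe, at 114558 to 114617, was well above background in Fbxw11d alone, with 16.0, and gives no fold.

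Idi1, the isomerase that supplies the building block dimethylallyl diphosphate to all isoprenoids, had a similar course. Its probe on chromosome 13 (mm9, 8891524 to 8891583) gave 7755 ± 776 in control, 9042 ± 904 in Fbxw11a, 10994 ± 1099 in Fbxw11c and 11355 ± 1136 in Fbxw11d. The log2 ratios were 0.22, 0.50 and 0.55. The step from Fbxw11a to Fbxw11c, 0.28 on the log2 scale, was larger than the scanner error of 0.20 and than the spread between spots, and the step from Fbxw11c to Fbxw11d, 0.05, was not.

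Fdft1 is squalene synthase, which commits farnesyl diphosphate to sterols. Its probe on chromosome 14 (mm9, 63765750 to 63769990, a span of 4241 bases that crosses an intron) gave 2531 ± 253 in control, 2401 ± 240 in Fbxw11a, 2893 ± 289 in Fbxw11c and 3262 ± 326 in Fbxw11d. The log2 ratios were -0.08, 0.19 and 0.37, so only the value of Fbxw11d lay beyond the scanner error from control. No neighbours in the order of the 4 levels differed beyond it. The second Fdft1 probe was well above background in Fbxw11d alone, with 13.4.

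Sqle encodes squalene epoxidase, a rate-controlling enzyme of the sterol branch. Its probe on chromosome 15 (mm9, 59162688 to 59162747) gave 19207 ± 1921 in control, 24267 ± 2427 in Fbxw11a, 25378 ± 2538 in Fbxw11c and 25526 ± 2553 in Fbxw11d. On the log2 scale the Fbxw11 lines lay 0.34, 0.40 and 0.41 above control, and the steps between them, 0.06 and 0.01, were within the scanner error. Sqle had the largest log2 ratio of the 8 genes in Fbxw11a and the smallest step from there to Fbxw11c.

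Lss, lanosterol synthase, closes the sterol rings. Its probe on chromosome 10 (mm9, 76015992 to 76016051) gave 530 ± 53 in control, 466 ± 47 in Fbxw11a, 514 ± 51 in Fbxw11c and 573 ± 57 in Fbxw11d. The log2 ratios of -0.19, -0.04 and 0.11 all lay within the scanner error, and that of Fbxw11c took the other sign, up to 0.07, with centring on the median or with no scaling.

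Cyp51, the lanosterol demethylase, is the first enzyme after ring closure. Its probe on chromosome 5 (mm9, 4081471 to 4081530) gave 1114 ± 111 in control, 1193 ± 119 in Fbxw11a, 1391 ± 139 in Fbxw11c and 1642 ± 164 in Fbxw11d. The levels increased from control to Fbxw11d, with log2 ratios to control of 0.10, 0.32 and 0.56. Both upper steps (0.22 and 0.24) exceeded the scanner error, and the first did not. The value of Fbxw11a became -0.03 when arrays were scaled on the spike-ins.

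Srebf2 encodes SREBP2 itself, and its promoter is one of the factor's own targets. Its brighter probe on chromosome 15 (mm9, 82034765 to 82034824) gave 1639 ± 164 in control, 1566 ± 157 in Fbxw11a, 1913 ± 191 in Fbxw11c and 2450 ± 245 in Fbxw11d. The level of Fbxw11d was the highest, 0.36 above the next on the log2 scale, and its ratio to control, 1.49-fold or 0.58, was the largest of the 8 genes in that line under the reported scaling. Fbxw11a was at -0.07 and Fbxw11c at 0.22. The second probe, at 82030068 to 82030127, gave 485 ± 49, 427 ± 43, 342 ± 34 and 499 ± 50 in the same order of lines, or log2 ratios of -0.18, -0.50 and 0.04. The probes disagreed in sign in Fbxw11c, where their mean was -0.14. Fbxw11d was the highest line on both probes, but it exceeded control beyond the scanner error only on the brighter probe.

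Insig1, which anchors the SCAP and SREBP complex in the endoplasmic reticulum and is itself a strong SREBP target, had a course of its own. Its probe on chromosome 5 (mm9, 28404246 to 28404305) gave 378 ± 38 in control, 390 ± 39 in Fbxw11a, 442 ± 44 in Fbxw11c and 294 ± 30 in Fbxw11d. Fbxw11d, the highest line for the other 7 genes, was the lowest for Insig1 under the reported scaling. The log2 ratios were 0.04, 0.22 and -0.36, so Fbxw11c and Fbxw11d lay 0.59 apart on either side of control. With spike-in scaling Fbxw11a became -0.09, and Fbxw11d became positive with spike-in scaling or no scaling, up to 0.26. Relative to the spike-ins Fbxw11d also lay above Fbxw11c (0.22 against 0.07).

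**Figure D2:**
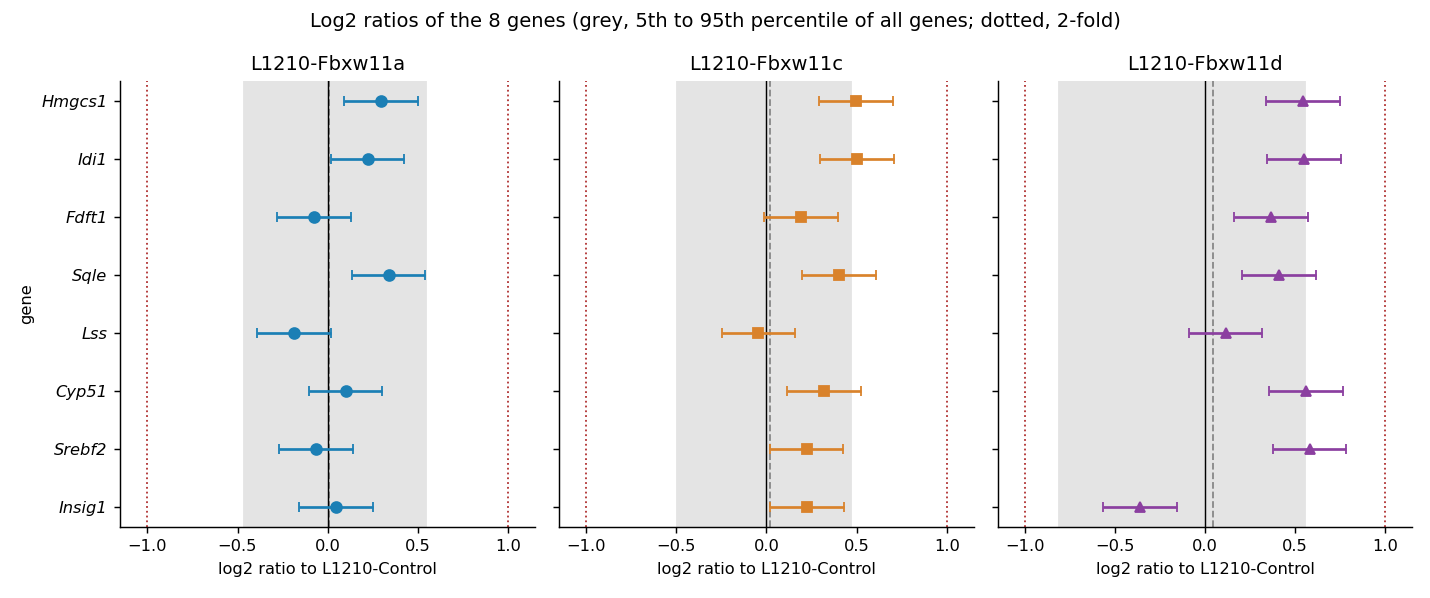
Log2 ratio of each of the 8 genes (y axis) to control (x axis) in each Fbxw11 line, with the scanner error as bars. The grey band spans the 5th to 95th percentile of 16249 genes well above background on all arrays, the dashed line is their median and the dotted lines are 2-fold; Hmgcs1 and Idi1 in Fbxw11c and Cyp51 and Srebf2 in Fbxw11d lie just above the band, and no gene reaches 2-fold.

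Side by side, the 8 genes had median log2 ratios of 0.07 in Fbxw11a, 0.27 in Fbxw11c and 0.48 in Fbxw11d. All 3 comparisons share the one control array. The medians of all 16249 genes well above background on the 4 arrays were 0.0046, 0.019 and 0.043, and among the 8428 of these whose control signal lay in the range of the 8 genes they were 0.0047, 0.037 and 0.076. With 5, 7 and 7 of 8, more of the genes were above control than below it in each line, beside 51.1%, 53.7% and 55.8% of all genes, and 51.2%, 58.1% and 63.3% of genes of like brightness. Scaling on the spike-ins turned the median of Fbxw11a to -0.06 with 3 of 8 genes above control, and it moved the median of all genes in that line by -0.13. The distance between the median of the 8 genes and that of all genes was 0.067, 0.25 and 0.43 in the 3 lines. Of the 11 alternatives, 6 (the 3 other scalings, both filters and the 1.5-fold threshold) cannot change this distance. Under the other 5 it lay between 0.055 and 0.080, between 0.249 and 0.255 and between 0.36 and 0.47.

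Some of the genes stood near the upper edge of all ratios on the array. In Fbxw11c, Hmgcs1 and Idi1 both lay at percentile 95.5 of all genes, Sqle at 93.4 and Cyp51 at 90.2. In Fbxw11d, Srebf2 lay at percentile 95.4, Cyp51 at 95.03, Idi1 at 94.9 and Hmgcs1 at 94.6, whereas Insig1 lay at 14.4. In Fbxw11a the highest was Sqle at 89.6 and the lowest Lss at 19.02. The spread of ratios over all genes was wider than for genes of like brightness, whose 95th percentiles were 0.35, 0.35 and 0.45.

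The order of the lines was then compared. In Hmgcs1, Idi1, Sqle and Cyp51, 4 of 8, the level was successively higher from control over Fbxw11a and Fbxw11c to Fbxw11d, an order that 7.61% of all genes had. Under the alternatives 3 or 4 of the 8 genes had it. All 8 genes were higher in Fbxw11c than in Fbxw11a (median 0.21 on the log2 scale, 4 of them beyond the scanner error), beside 53.0% of all genes. This held for 8 of 8 under every alternative except the mean of all probes of a gene, which gave 7. Between Fbxw11c and Fbxw11d, 7 of 8 were higher in Fbxw11d (median 0.10), beside 52.0% of all genes. Cyp51 and Srebf2 were higher and Insig1 lower beyond the scanner error. With normexp, quantile normalization or the deposited values 6 of 8 were higher in Fbxw11d. With spike-in scaling it was 8 of 8, so that Insig1 was then higher too. Higher than control in all 3 lines were 4 of 8 genes, beside 27.4% of all genes and 31.5% of genes of like brightness, and 0 of 8 were lower in all 3, beside 20.9%. Spike-in scaling left 3 in the first count and no scaling gave 5.

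The course of each gene was compared with the median course of the 8, each centred on its own mean over the 4 lines, by the root mean square difference on the log2 scale. Cyp51 was the closest at 0.052, followed by Fdft1 at 0.062, Idi1 at 0.070 and Hmgcs1 at 0.080. Sqle stood at 0.105, Srebf2 at 0.113 and Lss at 0.140, and Insig1 was the farthest at 0.327. Among 6174 other genes whose range over the lines was at least that of the median course (0.43), the 5 most alike were Ect2, B230307C23Rik, Churc1, B9d1 and Lpgat1, at 0.013, 0.013, 0.015, 0.018 and 0.027. Over only 4 arrays such likeness is a description.

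The other enzymes of the route were read in the same way. Of 14 other cholesterol synthesis enzymes, all well above background in all lines, 12 were higher than control in all 3 lines under the reported scaling, beside 27.4% of all genes and 31.5% of those in the brightness range of the 8 genes. Sc5d, which introduces the sterol C5 double bond, was lower in all 3, by up to -0.24 on the log2 scale. Its values in Fbxw11c and Fbxw11d took both signs across the alternatives. The medians of the 14 enzymes were 0.13, 0.24 and 0.23 on the log2 scale. Fdps, which makes farnesyl diphosphate, gave 27059, 27294, 28519 and 32084 in control, Fbxw11a, Fbxw11c and Fbxw11d, with log2 ratios of 0.01, 0.08 and 0.25, and its value in Fbxw11a ranged from -0.12 to 0.03 across the alternatives, while that in Fbxw11c became -0.08 with spike-in scaling. Under the reported scaling none of the 20 enzymes described here reached 2-fold in any line, while in Fbxw11d 5 of 20 did so with spike-in scaling and 7 of 20 with no scaling, beside 10.5% and 12.2% of all genes higher.

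**Figure D3:**
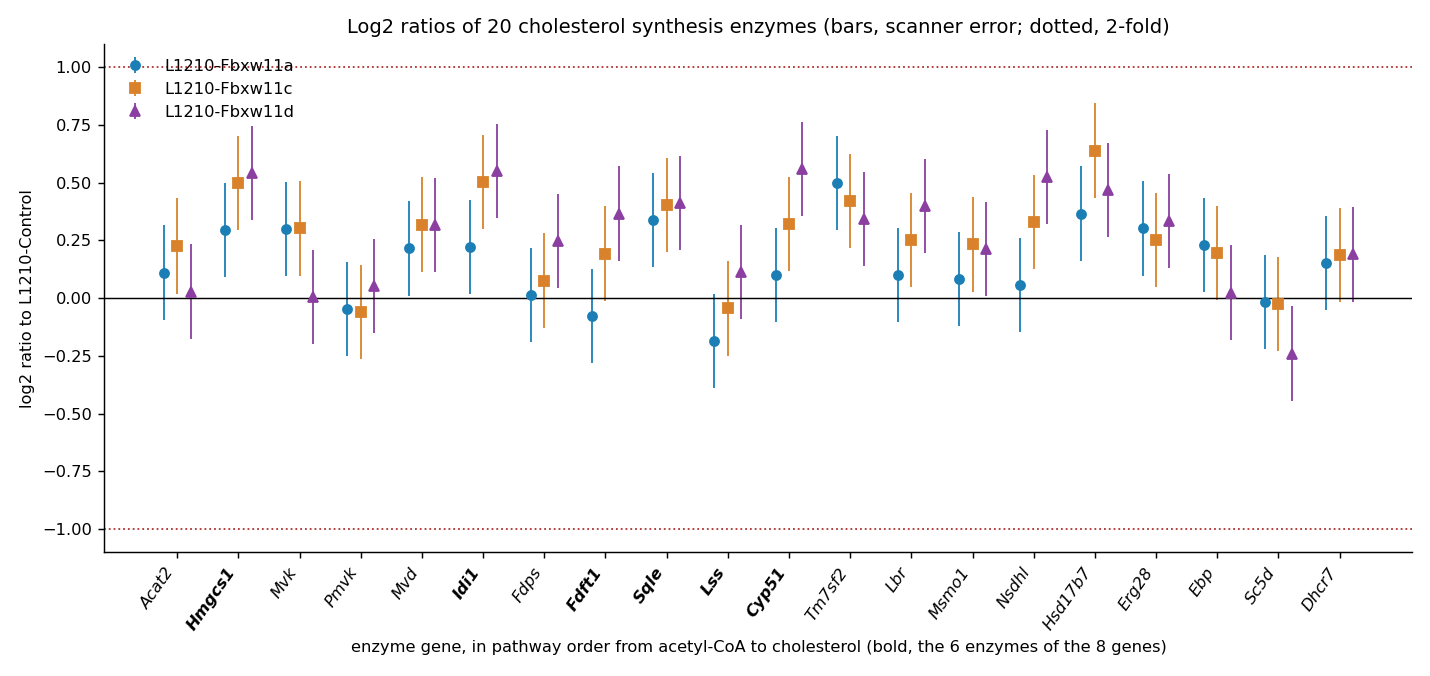
Log2 ratio to control (y axis) of 20 cholesterol synthesis enzymes in the order of the pathway (x axis, 6 of the 8 genes in bold), with 1 point per Fbxw11 line and the scanner error as bars. Under the reported scaling most points lie above 0, none reaches 2-fold, and Sc5d lies below 0 in all lines.

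Over all 20 enzymes, 16, 17 and 19 were above control in Fbxw11a, Fbxw11c and Fbxw11d, with medians of 0.13, 0.25 and 0.32, beside 51.1%, 53.7% and 55.8% of all genes. Spike-in scaling lowered the count of Fbxw11a to 10 and its median to 0.00092. In Fbxw11d all 20 lay above control with spike-in scaling or none, with medians of 0.91 and 0.946, and 16 with quantile normalization or the deposited values. In the order control, Fbxw11a, Fbxw11c, Fbxw11d stood 8 of 20, beside 7.61% of all genes.

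Of 10 genes that hold, release or degrade SREBP proteins and their partners, 1 passed 2-fold under the reported scaling, higher and in Fbxw11d only, beside 1.11% of all genes higher in that line, and the medians of the list were 0.13, 0.08 and 0.13. Scap, the sterol sensor that escorts SREBP2, gave 17064, 17918, 19859 and 19728 in the same order of lines, with log2 ratios of 0.07, 0.22 and 0.21, the first of which became -0.06 with spike-in scaling. Insig2 gave 5436, 6041, 5239 and 5982, with 0.15, -0.05 and 0.14, so that in Fbxw11d it lay above control where Insig1 lay below it. The Insig2 value of Fbxw11c turned positive under 3 alternatives, up to 0.06. Srebf1, which encodes the relative of SREBP2 that serves fatty acid synthesis, gave 176, 171, 167 and 165, with -0.05, -0.08 and -0.10, and became positive in Fbxw11d under 5 alternatives, up to 0.53 with no scaling, which also gave 0.04 in Fbxw11c. Rnf145, a ubiquitin ligase that acts on sterol regulation, gave 1842, 2020, 2935 and 3800. Its log2 ratios were 0.13, 0.67 and 1.04, and the last, 2.06-fold, was the call of this list. It was 0.98 with normexp or quantile normalization and 0.96 with the deposited values.

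Among 7 genes of sterol uptake and transport, 5, 3 and 5 were above control in Fbxw11a, Fbxw11c and Fbxw11d. Stard4, a carrier of cholesterol between membranes, was the gene past 2-fold under the reported scaling, lower in all 3 lines, beside 2.06%, 2.3% and 4.96% of all genes lower. It gave 50.4 in control and was not well above background in the Fbxw11 lines, so that it was at least 3.51-fold, 3.39-fold and 4.85-fold lower, against the lowest signal well above background on each array. With normexp it stood at -0.73, -0.77 and -1.28 on the log2 scale, so that only Fbxw11d stayed past 2-fold. The other Stard4 probe was not well above background in any line. The medians of this list were 0.07, -0.04 and 0.17.

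In the efflux and LXR list, 7 of 11 genes were well above background in at least 1 line, and Nr1h3, which encodes the sterol sensor LXR alpha, was at least 3.31-fold higher in Fbxw11a, beside 2.47% of all genes past 2-fold higher, by 1 probe (59.8 against a signal of 16.9 not well above background in control), while its second probe was not well above background in either of these lines. With normexp the first probe gave 0.60 on the log2 scale. In the fatty acid list of 11 genes, medians were 0.02, 0.10 and 0.31, and Fads2, a desaturase, gave 61.0, 65.9, 95.7 and 142, which is 2.32-fold higher in Fbxw11d beside 1.11% of all genes past 2-fold higher, or 0.57 on the log2 scale with normexp. The 8 genes of the non-sterol branch of the mevalonate route, which makes prenyl groups, dolichol and ubiquinone, held 0 past 2-fold under the reported scaling, with medians of -0.01, 0.03 and 0.16. These lists were set beside the all-gene medians of 0.0046, 0.019 and 0.043. In Fbxw11d the counts past 2-fold higher rose with spike-in scaling, beside 10.5% of all genes, and with no scaling, beside 12.2%. The SREBP list then had 2 genes under both (Rnf139 and Rnf145), the non-sterol branch 1 under both (Fntb), the uptake list 1 with the spike-ins (Npc1l1) and 2 with no scaling, and the fatty acid list 3 with the spike-ins (Fasn, Elovl6 and Fads2) and 4 with no scaling.

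**Figure D4:**
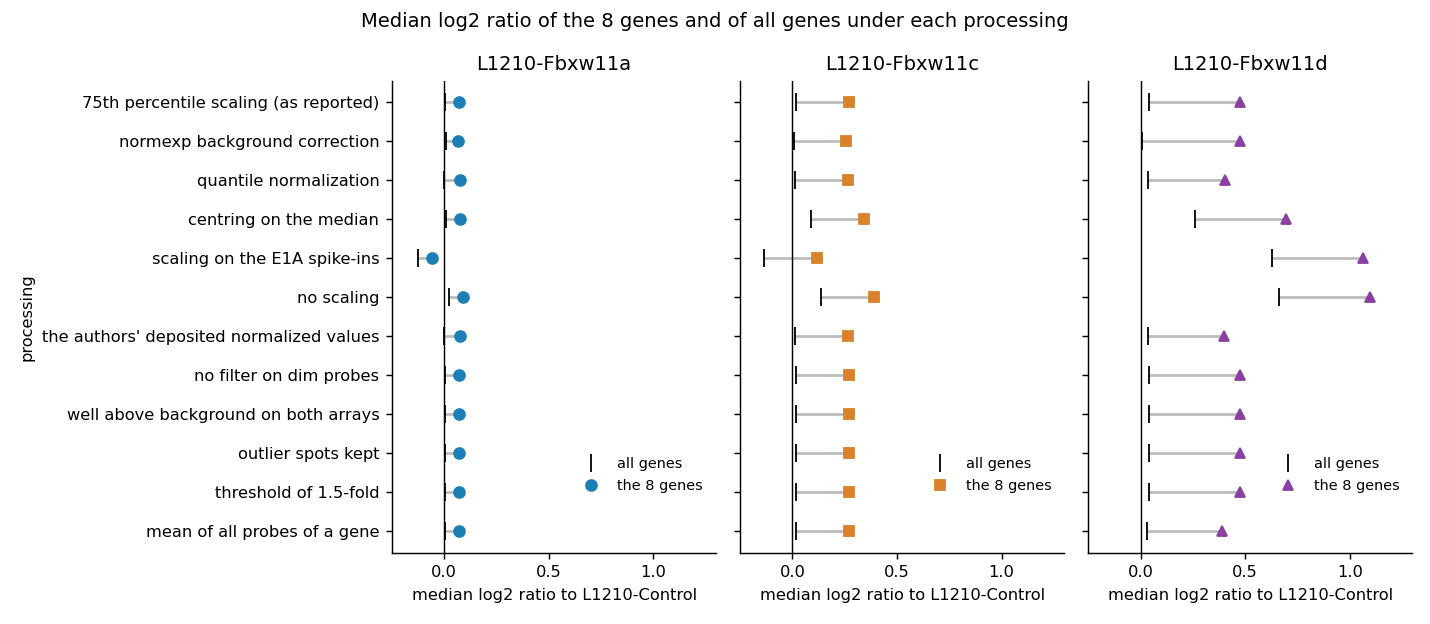
Median log2 ratio to control (x axis) of the 8 genes (coloured points) and of all genes (black ticks) in each Fbxw11 line under the reported processing and 11 alternatives (y axis). The scalings shift both medians together in Fbxw11d, where the 8 genes reach 1.098 with no scaling, which leaves the distance between them as it is. Under the alternatives that can change it, the distance in that line lies between 0.36 and 0.47.

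The plot of medians under each processing shows how far the values of Fbxw11d moved with the scaling. Relative to its spike-ins the line had 4 of 8 genes past 2-fold, beside 10.5% of all genes higher, and a median of 1.06, while all genes then had a median of 0.63.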

How the data were processed

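RNA of the 4 lines was hybridised to Agilent 1-colour mouse arrays, 1 per line. For each of them the authors deposited the scanner output, with a background-corrected signal intensity per spot, and 1 table of normalized log2 values with symbols and mm9 positions; its normalization is not given in the sources used here. The labels name Feature Extraction 9.1, the file headers 10.7.1.1. The scanner's processed signals were taken to log2, and the 75th percentile of the array's gene spots (from 620.2 for L1210-Control to 954 for L1210-Fbxw11d) was subtracted. Spots flagged as outliers by the scanner (102 to 167 per array) were dropped before the spots of each probe were averaged. A gene was read by its probe of highest mean signal, and compared if either array of the pair had it well above background, which required a share of 0.5 of its spots. Where only 1 array measured it, the fold is a bound against the higher of the probe's own signal and the lowest signal well above background on its array (10.4 to 18.1 on the scale of control). A gene was not compared where that higher value exceeded the signal on the array that measured it, as for Fads1 in L1210-Fbxw11a and L1210-Fbxw11d. Well above background were 62.5% to 68.7% of probes. The number of arrays limits the precision, and slide could not be fitted as a block.

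The members and lists were chosen with earlier results of these data known. Named were all 8 genes with every probe, listed cholesterol and SREBP genes past 2-fold, Fdps, Scap, Insig2 and Srebf1, and the 5 genes of most like course. Some of the listed genes are not reported here and enter no list count. Alternatives were normexp background correction (limma 3.58.1, R 4.3.3, offset 50), quantile normalization, centring on the median, spike-in scaling, no scaling, the deposited log2 values, 2 other filters, outlier spots kept, a 1.5-fold threshold and the mean over probes. Scaling and calling were first tested on simulated data. Python 3.11.15, numpy 2.4.6, pandas 2.3.3 and matplotlib 3.10.9 were used.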

Additional observations from a re-analysis of the deposited data

Results flagged for a closer look

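Insig1 was higher than L1210-Control in L1210-Fbxw11c (0.22 on the log2 scale) and lower in L1210-Fbxw11d (-0.36), a difference of -0.59 between the lines. It is listed because single arrays of these lines lay on opposite sides of the control. The difference was not tested, since each line has 1 array, and with spike-in scaling or no scaling L1210-Fbxw11d was also above L1210-Control. With spike-in scaling the values were 0.07 in L1210-Fbxw11c and 0.22 in L1210-Fbxw11d, so that the difference between the lines changed sign.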

How the results depend on the processing

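No member reached 2-fold in L1210-Fbxw11a or L1210-Fbxw11c under any of the 11 alternatives. In L1210-Fbxw11d the count was 4 with scaling on the E1A spike-ins and 5 with no scaling, and the median log2 ratio, 0.48 as reported, was 0.69 with centring on the median, 1.06 with the spike-ins and 1.098 with no scaling. These scalings moved the median of all genes in that line by 0.22, 0.59 and 0.62, and that of L1210-Fbxw11c by 0.12 with no scaling and by -0.15 with the spike-ins. Under the 8 alternatives that can change a ratio, 21 of 24 member medians and 343 of 392 single-gene values moved within the scanner error. Of the called values, 0 reversed. No member was called under the reported scaling, so that count says nothing about the 8 genes. Values of Lss, Cyp51, Srebf2 and Insig1 changed sign under at least 1 alternative. The deposited log2 values gave medians of 0.077, 0.26 and 0.40. Genes past 2-fold on the whole array in L1210-Fbxw11d, 194 higher and 866 lower as reported, were 33 and 424 with normexp, 400 and 583 with centring on the median, 323 and 619 with quantile normalization, 316 and 614 with the deposited values, 1901 and 342 with the spike-ins, 2223 and 335 with no scaling, 753 and 2076 without a filter, 147 and 576 with a filter on both arrays, and 898 and 1809 at 1.5-fold. For L1210-Fbxw11a, 435 higher and 363 lower became 125 and 120 with normexp, 1153 and 851 without a filter, 247 and 197 with a filter on both arrays and 1067 and 863 at 1.5-fold. For L1210-Fbxw11c, 286 and 402 became 60 and 150, 836 and 1001, 163 and 198 and 787 and 963 in the same order. No paired analysis was possible because each line has 1 array.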
